A study of Mus musculus with 8 samples.

Results

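Amyloid precursor protein is cut in steps by membrane-bound proteases, and 9 genes of that machinery were followed here in cultured mouse neurons after knockdown of the deadenylase CNOT7. The genes were taken by name from a table of 23845 genes: the substrates App, Aplp1 and Aplp2, the sheddases Adam10, Adam17 and Bace1, and the gamma-secretase subunits Psen2, Ncstn and Aph1a. All 9 were found. They were listed with the values of all 8 libraries already known, so their levels and differences are given as a description.

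Primary hippocampal neurons came from mouse embryos at day 19 of gestation. At 13 to 15 days in vitro they were infected with a lentivirus that carried a short hairpin RNA, either against CNOT7 (knockdown) or scrambled, and by the labels the cells were 17 to 19 days in vitro. Polyadenylated RNA was bound to poly(U) agarose and eluted at 75 °C. For the long-tail libraries, a wash at 50 °C first removed tails that the labels give as shorter than 50 nucleotides. The 4 groups, of 2 libraries each, were knockdown total, knockdown long-tail, scrambled total and scrambled long-tail RNA. The labels name no strain or promoter and 1 hairpin target, and leave unsaid whether both libraries of a group stem from separate cultures, so any p-value covers only the spread between these libraries. Levels are in TPM, a share of each library corrected for transcript length and deposited as whole numbers. A gene lower in long tails than in total RNA therefore took a smaller share of that library, no tail length was measured, and the read depth is unknown. In bulk RNA, fewer cells of a type and less RNA per cell cannot be told apart.

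Cnot7, the target, stood at 12 and 16 TPM in knockdown total RNA, against 42 and 36 TPM in scrambled total RNA, and at 9 and 11 TPM in knockdown long tails, against 28 and 31 TPM in scrambled long tails. Markers of neurons and of glia were both present. The summed level of 10 excitatory neuron markers was 3004 to 4253 TPM per library, that of 12 astrocyte markers was 3311 to 6059 TPM, and the microglial genes Aif1, Itgam, Cx3cr1 and Tmem119 were at 0 in every library. The ribosomal RNA precursor Rn45s took 2.898% of knockdown long-tail library 2, the lowest share, and 18.559% of knockdown long-tail library 1, the highest. The 2 knockdown long-tail libraries were the least alike of any group: over 6810 genes with at least 20 TPM on average, the median absolute difference between them was 0.322 on the log2(TPM + 1) scale, against 0.177 to 0.209 in the other groups. Values without library 2 of that group, which held the lowest levels of all 3 sheddases, are given beside the sheddases' knockdown and fraction differences.

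In the amyloidogenic route, the aspartyl protease BACE1 cuts the ectodomain of APP first and the gamma-secretase complex then cuts the remaining stub within the membrane, which releases amyloid-beta. In the other route, an alpha-secretase cuts inside the amyloid-beta stretch, so that no amyloid-beta is formed. ADAM10 is the main alpha-secretase of neurons and ADAM17 is a related metalloprotease known above all for releasing tumour necrosis factor. APLP1 and APLP2 are paralogs of APP that lack the amyloid-beta sequence. Gamma-secretase holds a presenilin such as PSEN2 as its catalytic subunit, nicastrin (Ncstn), which takes part in substrate recruitment, a scaffold (Aph1a or its relatives) and Psenen.

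Because the libraries were chosen by their poly(A) tails, the 3′ ends of the annotated transcripts are shown first. The poly(A) signal is the hexamer that directs cleavage and tail addition. Among the last 50 bases of the principal GENCODE M21 transcripts (GRCm38), 64.62% of 12302 tested genes held AATAAA and a further 14.56% held only ATTAAA, read on the transcript strand. Of the 9 genes, 7 had such a signal. Ncstn had ATTAAA, and Bace1 and Aph1a had neither of these letters in that window. The windows of 30 bases below, read 5′ to 3′, have in capitals the copy of the signal nearest the transcript end. Other copies are in lower case, such as an earlier AATAAA in the App window. They lie at chr9:70780194-70780223 (plus strand) for Adam10, chr12:21323540-21323569 (minus strand) for Adam17, chr16:84954443-84954472 (minus strand) for App and chr1:172066021-172066050 (minus strand) for Ncstn, all in 3′ untranslated regions.
Adam10: ttgaaatgcattAATAAAtagacttgatga
Adam17: ctgtgaattactAATAAAgctacgcacatg
App: tacataaataaattaAATAAAataactcca
Ncstn: atagcaagtttcATTAAAattatgcaatac

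The 3 sheddases had longer annotated 3′ untranslated regions than most genes. The region was 4104 bases long in Bace1, 2135 in Adam10 and 1759 in Adam17, against a median of 1041 bases over 12615 tested genes. Bace1 was longer than 93.2% of those genes, Adam10 than 75.2% and Adam17 than 68.4%. Aph1a (1917 bases, 71.2%) and Aplp2 (1314 bases, 57.8%) also lay above the median. App (888 bases), Ncstn (661 bases), Psen2 (567 bases) and Aplp1 (311 bases) lay below it. In the last 300 bases, TTTTAT, a core of the cytoplasmic polyadenylation element, was found on the transcript strand in Adam10, App and Ncstn, 3 of the 9, against 30.2% of 10264 genes with a region that long. Neither the Pumilio letters TGTANATA (10.8% of genes) nor the AU-rich TATTTAT (10.86%) was found in any of the 9 in that window.

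Adam10, which lies at chr9:70678997-70780229 on the plus strand, was lower in knockdown than in scrambled neurons in both fractions, and the libraries did not overlap in either. In total RNA it was at 39 and 44 TPM in knockdown libraries and at 54 and 62 TPM in scrambled libraries. The long-tail values were 25 and 21 TPM in knockdown libraries and 39 and 49 TPM in scrambled libraries. The highest knockdown long-tail library thus held less Adam10 than the lowest library of any other group. On the log2(TPM + 1) scale, which slightly understates changes of low genes, knockdown minus scrambled was −0.47 (SE 0.168, a fold of 0.721) in total RNA and −0.90 (SE 0.168, a fold of 0.535) in long tails.

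For long tails, the authors' deposited table lists Adam10, which fell by 0.724 on the log2 scale (SE 0.183, adjusted p = 0.011) and ranked 59 of 97 genes by adjusted p. The other 8 genes are not in that table, and none of the 9 is among the 104 genes that the authors' deposited total RNA table lists. Both list only genes with an adjusted p under 0.05. Of 13679 tested genes, 0.249% were listed as lower and 0.461% as higher in long tails, and 0.234% as lower and 0.526% as higher in total RNA. The limma fit to the rounded TPM of all 13681 tested genes gave Adam10 an adjusted p of 0.728 in total RNA and 0.335 in long tails. It called 0 genes (0.0%) in either comparison. Cnot7 itself, at a fold of 0.373 in total RNA and 0.36 in long tails, had a limma adjusted p of 0.153 and 0.173. A lack of calls by this fit therefore does not show a lack of change. Within the 6810 genes that averaged 20 TPM or more, Adam10 had the 220th lowest difference in total RNA and the 42nd lowest in long tails. Without knockdown long-tail library 2 its long-tail difference was −0.78.

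Bace1, at chr9:45838580-45864399 on the plus strand, had the same order of libraries. It was at 56 and 61 TPM in knockdown total RNA and at 76 and 79 TPM in scrambled total RNA. Its long-tail values were 43 and 33 TPM in knockdown libraries and 54 and 62 TPM in scrambled libraries. The groups did not overlap in either fraction, and the lowest value was that of knockdown long-tail library 2. For Bace1 the total RNA difference was −0.40 and the long-tail one −0.61 (SE 0.157 in each), or −0.42 without that library. By limma the adjusted p was 0.771 and 0.486.

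Adam17, at chr12:21323509-21373632 on the minus strand, was the least abundant of the 9. It was at 16 and 17 TPM in knockdown total RNA and at 19 and 21 TPM in scrambled total RNA. Long tails held 12 and 9 TPM in knockdown libraries and 13 and 19 TPM in scrambled libraries. The groups did not overlap, but a single TPM unit separated the closest long-tail libraries, and the values are whole numbers. For Adam17 the total RNA difference was −0.26 and the long-tail one −0.55 (SE 0.221 in each), or −0.36 without knockdown long-tail library 2. By limma the adjusted p was 0.969 and 0.57.

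The substrates overlapped between knockdown and scrambled neurons in both fractions. App (chr16:84949685-85173766, minus strand) was at 1028 and 1050 TPM in knockdown total RNA and at 1026 and 1225 TPM in scrambled total RNA. In long tails App was at 690 and 903 TPM in knockdown libraries and at 788 and 1125 TPM in scrambled libraries. In each fraction the lower scrambled library lay below the higher knockdown one. The App difference was −0.11 in total RNA, smaller than its error, and −0.25 in long tails, close to its error (SE 0.234 in each).

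Aplp1 (chr7:30434982-30445535, minus strand) varied most within the knockdown total group, at 808 and 600 TPM, against 850 and 698 TPM in scrambled total RNA. Its long-tail values were 688 and 832 TPM in knockdown libraries and 713 and 686 TPM in scrambled libraries. Its differences had opposite signs (total RNA −0.15, long tails 0.11, SE 0.203 in each), and both were smaller than the error. Aplp2 (chr9:31149557-31211815, minus strand) was at 473 and 460 TPM in knockdown total RNA and at 462 and 512 TPM in scrambled total RNA. In long tails Aplp2 was at 364 and 438 TPM in knockdown libraries and at 360 and 453 TPM in scrambled libraries. The 2 groups covered nearly the same range, and the differences were −0.06 and −0.02 (SE 0.164). Errors of this size do not show that the substrates stayed the same.

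Of the gamma-secretase subunits, Ncstn alone did not overlap in total RNA. Ncstn (chr1:172066013-172082795, minus strand) was at 97 and 82 TPM in knockdown total RNA and at 113 and 103 TPM in scrambled total RNA, a difference of −0.27 (SE 0.129, limma adjusted p = 0.873). Long-tail Ncstn was at 85 and 88 TPM in knockdown libraries, inside the 83 and 94 TPM of scrambled libraries, a difference of −0.03. Psen2, a catalytic subunit (chr1:180227004-180263438, minus strand), was at 28 and 24 TPM in knockdown total RNA and at 22 and 25 TPM in scrambled total RNA. In long tails Psen2 was at 23 and 29 TPM in knockdown libraries and at 21 and 24 TPM in scrambled libraries. Of the 9 genes it alone had a positive difference in both fractions, 0.14 and 0.19 (SE 0.168), with overlap in each. Aph1a (chr3:95893969-95898288, plus strand) was at 65 and 54 TPM in knockdown total RNA and at 70 and 55 TPM in scrambled total RNA. Long-tail Aph1a was at 54 and 67 TPM in knockdown libraries, on either side of the 57 and 56 TPM of scrambled libraries, and its differences were −0.07 and 0.09 (SE 0.179).

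**Figure D1:**
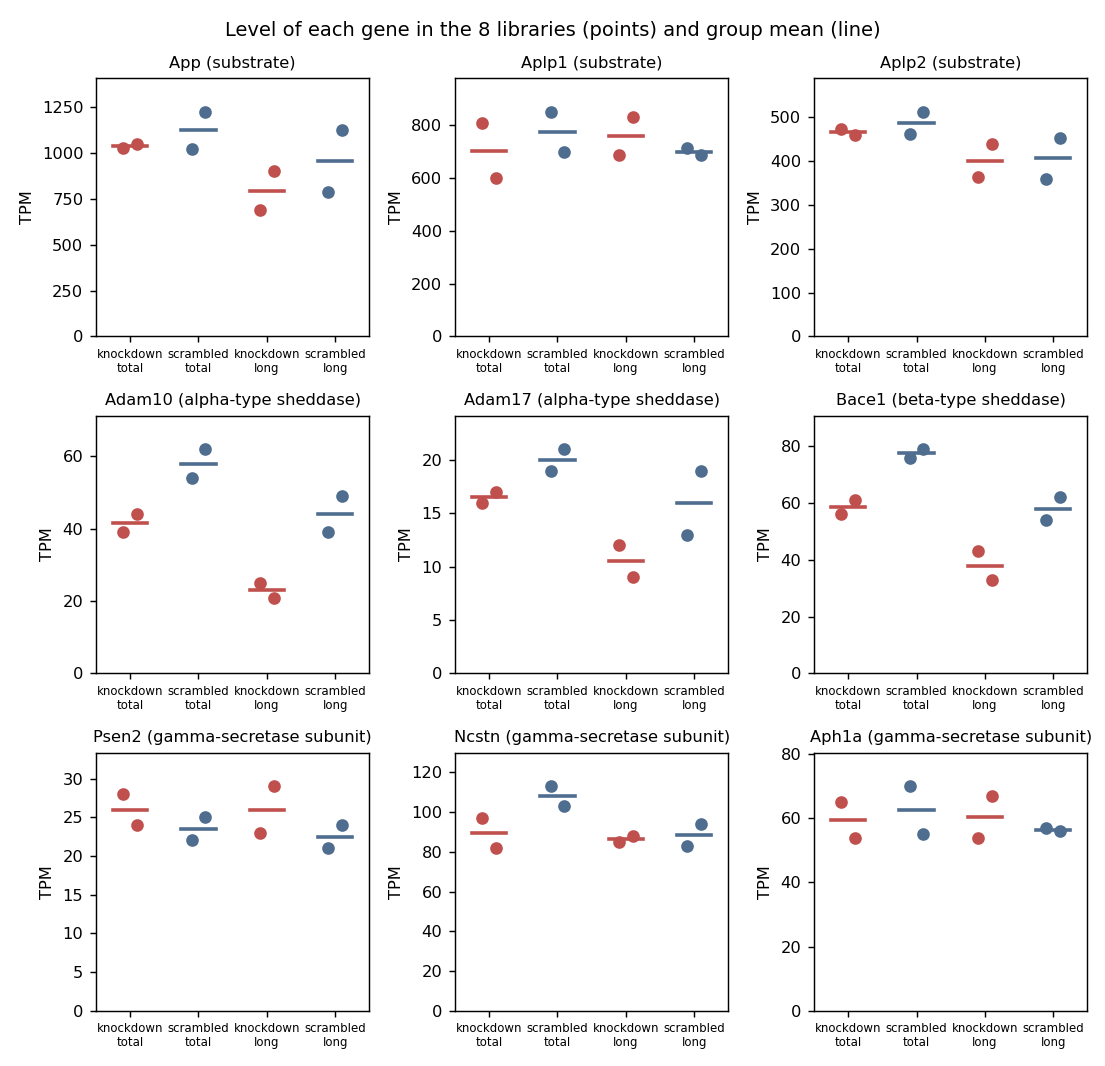
Level of each of the 9 genes in TPM (vertical axes, from 0) in the 8 libraries (points) with the mean of the 2 libraries of each group (lines), knockdown in red and scrambled in blue. Adam10, Adam17 and Bace1 have both knockdown points below both scrambled points in each fraction, while App, Aplp1, Aplp2, Psen2 and Aph1a overlap in each.

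Counted over the 9 genes, the libraries did not overlap and were lower in knockdown for 4 in total RNA (Adam10, Adam17, Bace1 and Ncstn), against 20.1% of 13679 tested genes. In long tails this held for 3 (Adam10, Adam17 and Bace1), against 17.1% of genes. It held in both fractions for the 3 sheddases, against 9.5% of all tested genes and 11.9% of those averaging 20 TPM or more. None of the 9 was higher in knockdown without overlap, against 8.68% of genes in total RNA and 8.91% in long tails. The genes were listed with these values known, so the shares are set side by side and nothing is read from them. The median difference of the 9 was −0.15 in total RNA and −0.03 in long tails, against −0.07 and −0.10 over all tested genes. An unadjusted p under 0.05 by limma was reached by Adam10 and Bace1 in total RNA, where 4.3% of genes were lower and 2.05% higher at that level. Adam10, Adam17 and Bace1 reached it in long tails, where 6.47% of genes were lower and 2.25% higher. With TPM recomputed without Rn45s, the limma p in total RNA was 0.0744 for Adam10 and 0.135 for Bace1. In long tails it was then 0.00248 for Adam10, 0.0197 for Bace1 and 0.0503 for Adam17.

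**Figure D2:**
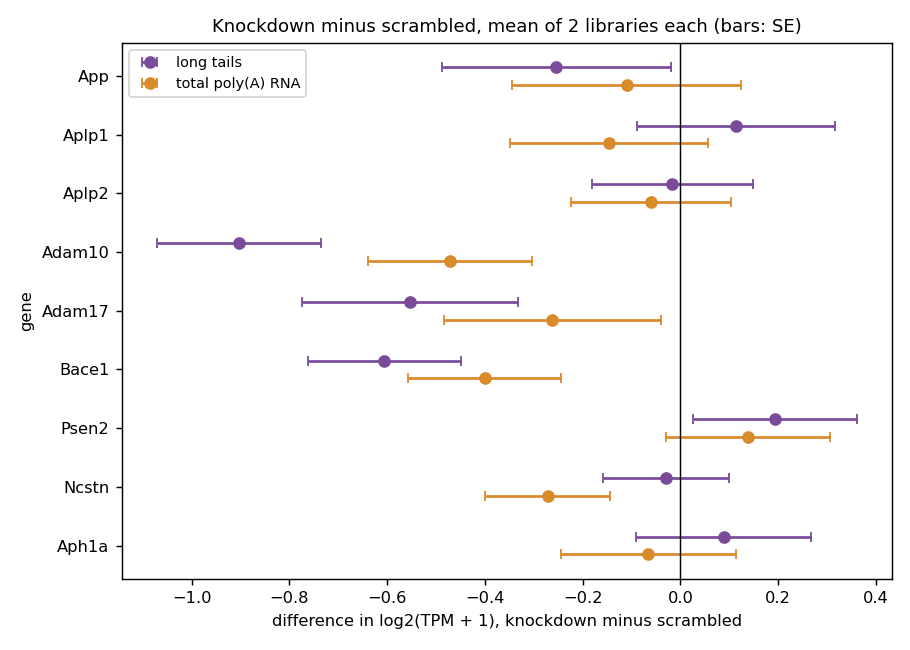
Knockdown minus scrambled difference in log2(TPM + 1) (horizontal axis) for the 9 genes, in long tails (purple) and total RNA (orange), each the mean of 2 libraries against 2 with its standard error from the limma fit. Adam10 lies farthest below 0, at −0.90 in long tails and −0.47 in total RNA, and Psen2 lies above 0 in both.

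Ratios within a library do not depend on how the library was scaled. Adam10 came to 3.79% and 4.19% of App in knockdown total RNA, against 5.26% and 5.06% in scrambled total RNA. In the long-tail libraries it came to 3.62% and 2.33% of App in knockdown libraries, against 4.95% and 4.36% in scrambled libraries. All 4 knockdown libraries were thus below all 4 scrambled ones. The 3 sheddases together came to 4.81% and 5.78% of the 3 APP family genes in knockdown total RNA, against 6.37% and 6.65% in scrambled total RNA, and to 4.59% and 2.90% in knockdown long tails, against 5.70% and 5.74% in scrambled long tails. In each fraction knockdown was lower. The 3 gamma-secretase subunits came to 8.23% and 7.58% of the APP family in knockdown total RNA, against 8.77% and 7.52% in scrambled total RNA. In long tails they came to 9.30% and 8.47% in knockdown libraries, against 8.65% and 7.69% in scrambled libraries, so that this ratio overlapped in both fractions. Bace1 relative to App overlapped in long tails, at 6.23% and 3.65% in knockdown and 6.85% and 5.51% in scrambled libraries, and Adam17 relative to App did so too.

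Per length, the 9 genes ranged widely in level. Over the 8 libraries App had a median of 1027 TPM (690 to 1225), Aplp1 705.5 TPM (600 to 850) and Aplp2 456.5 TPM (360 to 512), and the mean of Aplp2 was above that of 97.7% of tested genes. The proteases and subunits were lower. Ncstn had a median of 91 TPM (82 to 113), Bace1 58.5 TPM (33 to 79), Aph1a 56.5 TPM (54 to 70), Adam10 41.5 TPM (21 to 62), Psen2 24 TPM (21 to 29) and Adam17 16.5 TPM (9 to 21). Bace1, Aph1a and Adam10 overlapped in range. In scrambled total RNA Bace1 (76 and 79 TPM) stood above Aph1a (70 and 55 TPM), and in knockdown long tails Bace1 (43 and 33 TPM) stood below Aph1a (54 and 67 TPM). Likewise Adam10 was above Psen2 in 7 libraries, and below it in knockdown long-tail library 2 (21 against 29 TPM).

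The long-tail libraries held a smaller share of the sheddases than the total libraries, in knockdown and in scrambled neurons. Long tails minus total for Adam10 was −0.83 in knockdown and −0.40 in scrambled neurons (SE 0.168 in each). For Bace1 it was −0.62 and −0.42 (SE 0.157), and for Adam17 −0.62 and −0.33 (SE 0.221). The libraries of Adam10 and Bace1 did not overlap in knockdown or in scrambled neurons, and those of Adam17 overlapped in scrambled neurons, where both fractions had a library at 19 TPM. Of all tested genes, 40.0% were lower in long tails without overlap in knockdown and 39.6% in scrambled neurons, while 4.04% and 4.69% were higher. Adam10 and Bace1 did not overlap in any of the 4 comparisons, as for 6.37% of tested genes and 8.05% of those averaging 20 TPM or more. The median gene differed by −0.22 in each, so lower long-tail shares were common. Without knockdown long-tail library 2 the knockdown values were −0.71 for Adam10 (adjusted p = 0.302 by limma), −0.43 for Bace1 and −0.43 for Adam17. The size also depended on the scaling: after quantile normalization the knockdown values were −0.54, −0.38 and −0.26 in the same order. In scrambled neurons, centring each library on its median gave −0.18 for Adam10 and −0.20 for Bace1, and quantile normalization gave −0.06 for Adam17.

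The substrates and subunits had smaller differences between fractions in knockdown neurons, without a test of that contrast. App was at −0.40 in knockdown and −0.25 in scrambled neurons (SE 0.234), lower without overlap in knockdown. Aplp2 was at −0.22 and −0.27 (SE 0.164), lower without overlap in both. Aplp1 was at 0.12 in knockdown and −0.14 in scrambled neurons (SE 0.203), with overlap in both. Ncstn was at −0.04 in knockdown, where its libraries overlapped, and at −0.29 in scrambled neurons (SE 0.129), where they did not. Psen2 (−0.01 and −0.06) and Aph1a (0.02 and −0.13) overlapped in both. By limma 0 of 13681 genes were called with or without knockdown (0.0%). At an unadjusted p under 0.05, 25.1% of genes were lower and 0.921% higher in knockdown neurons, and 12.9% lower and 0.263% higher in scrambled neurons. That level was reached by 3 of the 9 genes in knockdown and by 1 in scrambled neurons, all lower. With TPM recomputed without Rn45s, the 1 gene in scrambled neurons, Bace1, had a limma p of 0.156. The adjusted p of Adam10 in the main fit was 0.14 in knockdown and 0.382 in scrambled neurons. Without knockdown long-tail library 1 the fit put Adam10 (adjusted p = 0.0452), Bace1 (adjusted p = 0.027) and 2125 genes in all past the threshold. That fit has a lone knockdown long-tail library, the one with the lowest sheddase levels, and assumes that it varies like the other groups, so these are not counted as calls of the 9 genes.

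**Figure D3:**
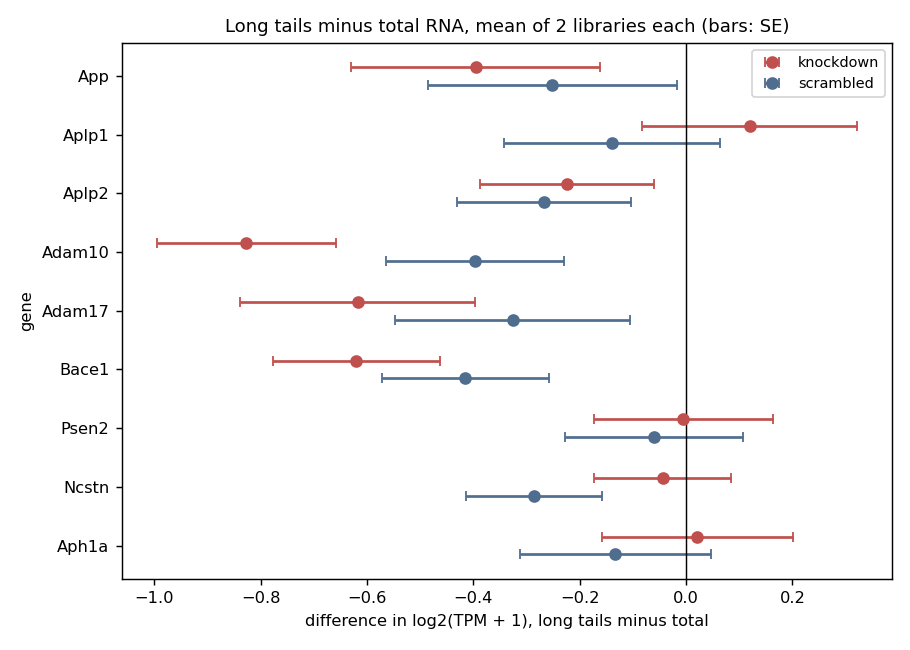
Long tails minus total RNA in log2(TPM + 1) (horizontal axis) for the 9 genes in knockdown (red) and scrambled (blue) neurons, each the mean of 2 libraries against 2 with its standard error from the limma fit. Adam10, Adam17 and Bace1 lie farthest below 0 in knockdown neurons, at −0.83, −0.62 and −0.62.

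Whether the fraction difference itself differed with knockdown was asked with the interaction: the long-tail knockdown difference with the total RNA one subtracted. It was −0.43 for Adam10 (SE 0.237), −0.29 for Adam17 (SE 0.313) and −0.21 for Bace1 (SE 0.221). Leaving out 1 library brought it to −0.27 for Adam10 and −0.03 for Adam17 (without scrambled long-tail library 2) and to −0.02 for Bace1 (without knockdown long-tail library 2). For App it was −0.14 and for Aplp2 0.04, while for Aplp1 (0.26, SE 0.287), Ncstn (0.24, SE 0.182), Aph1a (0.15) and Psen2 (0.06) it was positive. By limma 0 of 13681 genes were called (0.0%), with 0.482% negative and 0.395% positive at an unadjusted p under 0.05. There, none of the 9 genes had an unadjusted p under 0.05, and the adjusted p of Adam10 was 1.00. Its error is large enough that a different response of the long-tail fraction was neither shown nor bounded closely.

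Length of the 3′ untranslated region moved with the fraction difference across genes. Genes averaging 20 TPM or more were split by that length into 4 classes of about equal size. The class with the longest regions (2045 bases or more, 1620 genes, Adam10 and Bace1 among them) had a median long minus total difference of −0.52 in knockdown and −0.39 in scrambled neurons. The class with the shortest regions (up to 410 bases, 1622 genes, Aplp1 among them) had 0.13 and 0.04. In scrambled neurons Adam10 (−0.40) and Bace1 (−0.42) lay close to the median of their class. In knockdown neurons Adam10 (−0.83) and Bace1 (−0.62) lay below theirs, and so did App (−0.40), whose class had a median of −0.04. Without knockdown long-tail library 2, Adam10 was at −0.71 and App at −0.59, below these medians, while Bace1 was at −0.43, above its own. The class medians were not recomputed without that library. Adam17 (−0.62) averaged under 20 TPM and was in no class, and genes of its length had a median of −0.23. The knockdown minus scrambled difference in long tails had a median of −0.20 in the class with the longest regions and 0.04 in that with the shortest, and in total RNA −0.06 and −0.04. The part of length in the sheddases' values was not tested.

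**Figure D4:**
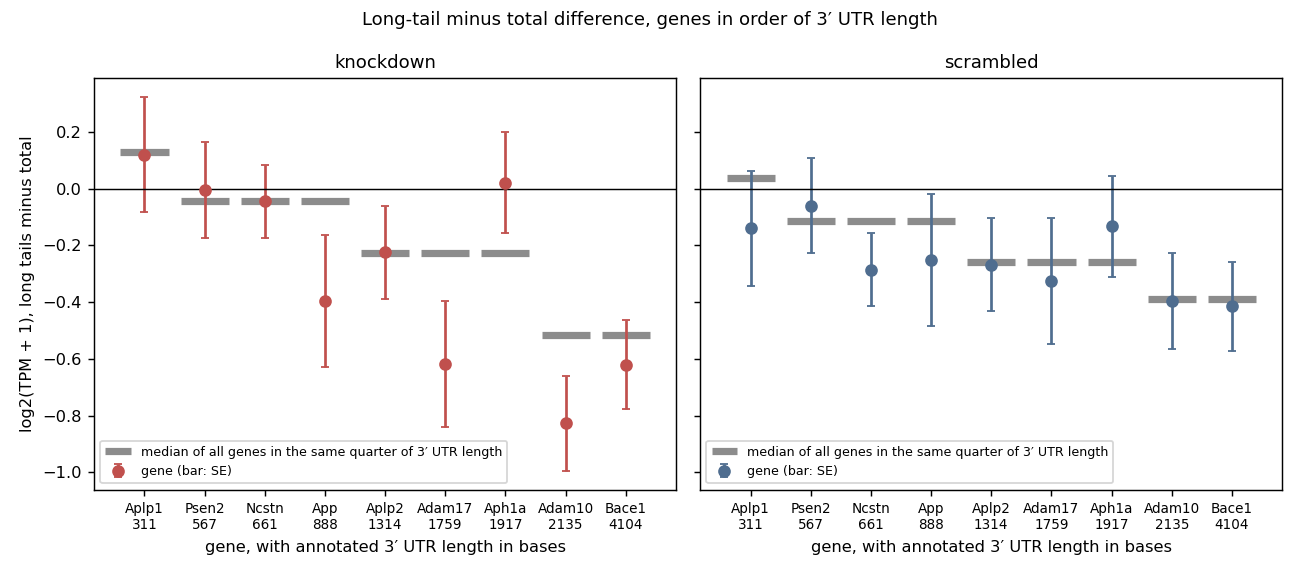
Long tails minus total RNA in log2(TPM + 1) (vertical axis) for the 9 genes in order of annotated 3′ UTR length (horizontal axis, length in bases under each name), in knockdown (left) and scrambled (right) neurons, with standard errors. Grey bars give the median of all genes averaging 20 TPM or more in the same class of length. In scrambled neurons Adam10 (−0.40) and Bace1 (−0.42) sit at the grey bar of −0.39, and in knockdown neurons Adam10 (−0.83) sits below the grey bar of −0.52.

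The 3 sheddases followed each other closely over the 8 libraries. Pearson's r on log2(TPM + 1) was 0.984 for Adam10 and Bace1, 0.961 for Adam10 and Adam17 and 0.965 for Adam17 and Bace1, as a description over 8 libraries, in which all genes share the scaling to a fixed sum. App and Aplp2 were alike (0.94), as were Aplp1 and Aph1a (0.932), whereas Adam10 had −0.205 with Aplp1 and −0.375 with Psen2. Among 6808 other genes averaging 20 TPM or more, the 8 most like Adam10 were Myo6 (r = 0.992), Gid4 (0.99), Gprasp1 (0.988), Cab39 (0.987), Atxn7l3b (0.986), Lpin1 (0.986), Cmtr1 (0.985) and Bace1 (0.984). Myo6, an actin motor that moves towards the minus end, was at 19 and 25 TPM in knockdown total RNA, against 30 and 40 TPM in scrambled total RNA, and at 11 and 8 TPM in knockdown long tails, against 19 and 24 TPM in scrambled long tails. Gprasp1, which binds G protein-coupled receptors for sorting, was at 82 and 97 TPM in knockdown total RNA, against 123 and 146 TPM in scrambled total RNA, and at 53 and 52 TPM in knockdown long tails, against 84 and 105 TPM in scrambled long tails. Both were picked for their likeness to Adam10, so the order that they share with it, scrambled total highest and knockdown long tails lowest, follows from that choice. Being lower without overlap in all 4 comparisons held for 8.05% of tested genes averaging 20 TPM or more.

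**Figure D5:**
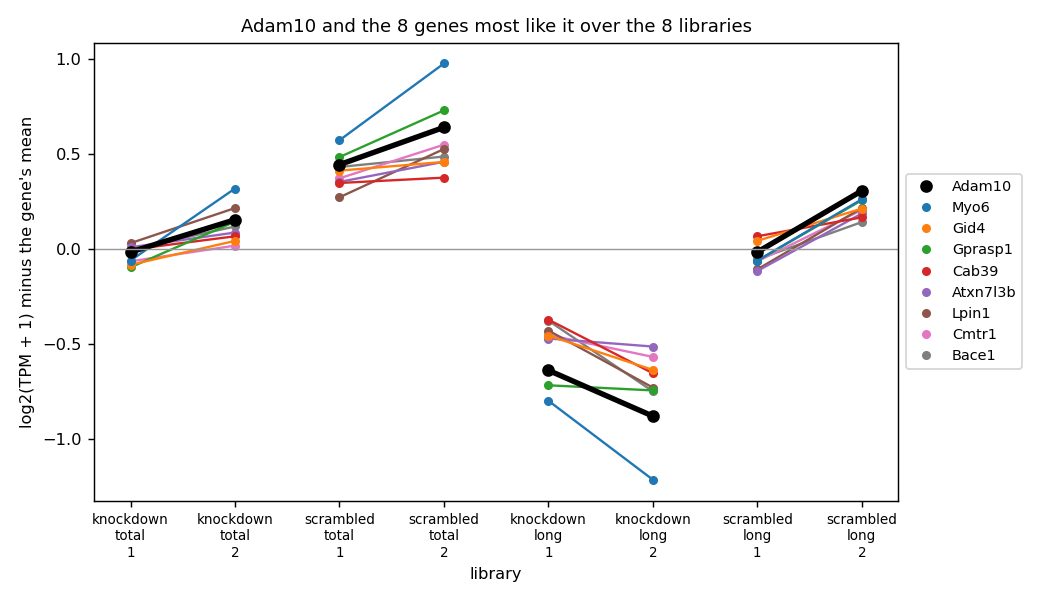
Level of Adam10 (black) and the 8 genes most like it, as log2(TPM + 1) minus the gene's own mean (vertical axis), in the 8 libraries (horizontal axis; lines join the 2 libraries of a group and carry no order). All 9 genes are highest in the scrambled total libraries and lowest in the knockdown long-tail libraries. The 8 were picked by their r with Adam10 over these libraries, 0.984 to 0.992.

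The promoters of the related metalloprotease genes Adam10 and Adam17 are shown next. Each is 300 bases of RefSeq sequence on GRCm38.p6, 250 before and 50 after the annotated start, read along the gene, with the Sp1-type GC box GGGCGG or its complement in capitals. Of the 9 genes, 8 were matched, all but Bace1. The Adam10 promoter lies at chr9:70678732-70679031 (plus strand) and that of Adam17 at chr12:21373583-21373882 (minus strand).
Adam10: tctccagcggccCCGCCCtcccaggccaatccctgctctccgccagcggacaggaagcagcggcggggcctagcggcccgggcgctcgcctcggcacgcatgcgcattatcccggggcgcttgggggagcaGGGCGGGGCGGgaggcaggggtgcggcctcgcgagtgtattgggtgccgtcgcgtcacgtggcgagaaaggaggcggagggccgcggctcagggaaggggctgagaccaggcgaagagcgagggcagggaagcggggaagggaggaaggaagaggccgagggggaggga
Adam17: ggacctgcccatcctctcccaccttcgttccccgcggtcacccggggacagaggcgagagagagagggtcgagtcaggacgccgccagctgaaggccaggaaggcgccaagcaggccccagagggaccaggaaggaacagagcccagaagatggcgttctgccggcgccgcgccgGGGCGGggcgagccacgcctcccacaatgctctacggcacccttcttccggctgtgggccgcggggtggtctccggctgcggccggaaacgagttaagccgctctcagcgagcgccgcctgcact
The GC box was present 3 times in Adam10, with 2 copies that overlap, and 1 time in Adam17. It was found on either strand in 35.66% of 32851 promoters of the same length. TATAAA (13.62% of promoters) and the cyclic AMP element TGACGTCA (1.79%) were in neither, and CCAAT (37.41%) was in Adam10, 2 times over both strands, and not in Adam17. GC content was 73.3% in Adam10 and 70.0% in Adam17, against a median of 52.7%. The App promoter was at 71.0% with 1 GC box. Aplp2 held 4 GC boxes, Aplp1 2, Aph1a 1 and Ncstn 0. The Psen2 promoter at chr1:180256251-180256550 held 4, and another Psen2 promoter held 0. The part of promoter sequence in the levels, or in their likeness over the libraries, was not tested.

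Of the other proteases and subunits of the pathway, 11 of 12 listed genes were tested and 0 were called in either fraction. In total RNA 3 were higher and 8 lower (median −0.16), and in long tails likewise 3 and 8 (median −0.29), against medians of −0.07 and −0.10 over all genes. Lgmn, an asparaginyl endopeptidase that also cuts APP, was at 110 and 81 TPM in knockdown total RNA, against 157 and 145 TPM in scrambled total RNA, and at 95 and 88 TPM in knockdown long tails, against 145 and 134 TPM in scrambled long tails. It did not overlap in either fraction, with differences of −0.67 and −0.60 (SE 0.165). Adam9, a metalloprotease, was at 95 and 104 TPM in knockdown total RNA, against 110 and 122 TPM in scrambled total RNA. In long tails Adam9 was at 67 and 70 TPM in knockdown libraries and 73 and 102 TPM in scrambled libraries, again without overlap. Psenen, the smallest gamma-secretase subunit, overlapped in both fractions, at 264 and 192 TPM in knockdown and 326 and 257 TPM in scrambled total RNA. Aph1b, which can replace Aph1a in the complex, was higher without overlap in total RNA, at 18 and 22 TPM in knockdown and 15 and 17 TPM in scrambled libraries, and overlapped in long tails.

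The ADAM family as a whole, added after the values of Adam10 had been seen, did not all share its pattern. Of 33 family genes in the table, 18 were at 0 in every library and 10 were tested. In both fractions 4 of the 10 were lower in knockdown without overlap: Adam10, Adam17, Adam9 and Adam12, at 11 and 14 TPM in knockdown and 17 and 20 TPM in scrambled total RNA for the last. Over all tested genes this held for 9.5%. All 4 encode active metalloproteases, but so do Adam19, which overlapped in both fractions, and Adam15, which overlapped in total RNA. Adam19 was at 17 and 18 TPM in knockdown and 21 and 18 TPM in scrambled total RNA. Adam11, Adam22 and Adam23, whose proteins lack protease activity and act at synapses, overlapped in both fractions. Adam23, for example, was at 77 and 70 TPM in knockdown and 70 and 64 TPM in scrambled total RNA, where its lowest knockdown library equalled the highest scrambled one. Adam15 was higher without overlap in long tails, at 89 and 94 TPM in knockdown and 81 and 77 TPM in scrambled libraries.

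Genes whose proteins act on ADAM10 and ADAM17 had mostly negative differences, as did 60.2% of all tested genes in total RNA and 61.2% in long tails. Of 18 tested genes, 3 were higher and 15 lower in total RNA (median −0.19, 6 lower without overlap), and 4 were higher and 13 lower in long tails (median −0.16, 5 lower without overlap). Lower without overlap were 20.1% of all tested genes in total RNA and 17.1% in long tails. None of the 18 was called. Frmd8, which stabilises the iRhom partners of ADAM17, was at 42 and 33 TPM in knockdown and 54 and 49 TPM in scrambled total RNA, and at 36 and 31 TPM in knockdown and 45 and 44 TPM in scrambled long tails. Its differences were −0.46 and −0.40 (SE 0.154). Tspan5, one of the tetraspanins that carry ADAM10 to the cell surface, overlapped in both fractions, at 186 and 135 TPM in knockdown and 160 and 124 TPM in scrambled total RNA. Sfrp1, an inhibitor of ADAM10, was lower without overlap in both, with differences of −0.24 and −0.25 (SE 0.097), and Timp2, a metalloprotease inhibitor, was so in total RNA, at 551 and 530 TPM in knockdown and 634 and 628 TPM in scrambled libraries.

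Among 41 tested adaptors and sorting proteins of APP, 21 were higher and 20 lower in total RNA (median 0.01) and 17 were higher and 24 lower in long tails (median −0.03). Without overlap, 12 were higher and 10 lower in total RNA, against 8.68% and 20.1% of all tested genes. In long tails 7 were higher and 9 lower without overlap, against 8.91% and 17.1%. Klc1, a kinesin light chain reported to link APP to its motor, was at 644 and 600 TPM in knockdown total RNA, against 291 and 300 TPM in scrambled total RNA. Klc1 rose by 1.01 (log2, adjusted p = 8.94e-06) in the authors' deposited total RNA table. Gga3, an adaptor that sorts BACE1 to lysosomes, was at 16 and 12 TPM in knockdown and 30 and 23 TPM in scrambled total RNA, and at 13 and 12 TPM in knockdown and 20 and 18 TPM in scrambled long tails. Picalm, a clathrin assembly protein, was lower without overlap in both fractions, with differences of −0.38 and −0.58 (SE 0.188). Sort1 was higher without overlap in total RNA, at 136 and 138 TPM in knockdown and 96 and 91 TPM in scrambled libraries. Of the 4 most abundant members, Itm2b, Itm2c and Rtn1 were lower without overlap in total RNA and overlapped in long tails. For Rtn1 the closest total RNA libraries were at 1516 TPM in knockdown and 1517 TPM in scrambled neurons. Itm2b, whose protein binds APP, was at 922 and 843 TPM in knockdown and 1099 and 1074 TPM in scrambled total RNA. Rtn3, which binds BACE1, overlapped in both fractions, at 969 and 817 TPM in knockdown and 1070 and 886 TPM in scrambled total RNA. Of 11 gamma-secretase modulators, 2 were higher and 9 lower in total RNA, with Tmed10 at −0.30 in each fraction (SE 0.097) and no overlap.

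Other substrates of these proteases did not move as one. Of 56 tested genes, 21 were higher and 34 lower in total RNA (median −0.09, with 10 higher and 13 lower without overlap), and 14 were higher and 42 lower in long tails (median −0.21, with 3 and 10 without overlap). Without overlap, 8.68% of all tested genes were higher and 20.1% lower in total RNA, and 8.91% higher and 17.1% lower in long tails. Sdc3, a neuronal heparan sulfate proteoglycan, was at 205 and 196 TPM in knockdown long tails, against 138 and 129 TPM in scrambled long tails, and rose by 0.603 (log2, adjusted p = 0.0282) in the authors' deposited long-tail table. Scn2b, a sodium channel subunit cut by BACE1, was at 53 and 54 TPM in knockdown and 83 and 82 TPM in scrambled total RNA, and at 46 and 41 TPM in knockdown and 63 and 67 TPM in scrambled long tails. The limma fit called none of the 56, and Scn2b had an adjusted p of 0.29 in total RNA and 0.328 in long tails.

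Genes for breakdown and clearance of amyloid-beta were mostly lower in knockdown. So were 60.2% of all tested genes in total RNA and 61.2% in long tails. Of 13 tested, 3 were higher and 10 lower in total RNA (median −0.16), and 2 were higher and 11 lower in long tails (median −0.12). Ece1, an endothelin-converting enzyme that degrades amyloid-beta, was at 23 and 22 TPM in knockdown total RNA, against 13 and 10 TPM in scrambled total RNA. The authors' deposited total RNA table has Ece1, which rose by 0.892 (log2, adjusted p = 0.000724). Ece1 also rose by 0.903 (log2, adjusted p = 0.000594) in the authors' deposited long-tail table. Ide, the insulin-degrading enzyme, was at 39 and 40 TPM in knockdown and 56 and 55 TPM in scrambled total RNA, and at 31 and 21 TPM in knockdown and 37 and 42 TPM in scrambled long tails. It was lower without overlap in both.

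Oligodendrocyte markers were also lower in knockdown neurons. The summed astrocyte markers overlapped, though most of them had negative differences. The summed level of 16 oligodendrocyte lineage markers was 1310 to 1350 TPM in knockdown and 1935 to 2144 TPM in scrambled total RNA, and 1143 to 1410 TPM in knockdown and 1711 to 2081 TPM in scrambled long tails. All 15 tested members were lower in both fractions, against 60.2% of all tested genes in total RNA and 61.2% in long tails. In each fraction 8 were lower without overlap, against 20.1% of all tested genes in total RNA and 17.1% in long tails. The 12 astrocyte markers summed to 3894 to 5941 TPM in knockdown and 4786 to 6059 TPM in scrambled total RNA, and to 3311 to 4582 TPM in knockdown and 4152 to 4718 TPM in scrambled long tails, overlapping in both. Of the 12, 11 were lower in total RNA (median −0.23) and 10 in long tails (median −0.29). Over all tested genes the medians were −0.07 and −0.10. Without overlap, 3 of the 12 were lower in total RNA and 2 in long tails, against the same 20.1% and 17.1%. The excitatory neuron markers overlapped, at 3005 to 4144 TPM in knockdown and 3202 to 4253 TPM in scrambled total RNA. The part of the glial markers in the values of Adam10, Bace1 and Adam17 was not tested.

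Some of the 9 genes share bases with a gene on the other strand, and no source used here states whether reads were counted by strand, so their values are uncertain to that extent. By the GENCODE annotation, Bace1 overlaps the antisense transcript Gm16536 and the end of Rnf214, Adam17 overlaps the end of Iah1, and App, Psen2, Ncstn and Aph1a each overlap at least 1 such gene. Adam10, Aplp1 and Aplp2 overlap none.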

How the data were processed

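The submitters' processing notes name the mm10 build and the tools RSEM, TopHat2, CASAVA, DESeq and DESeq2, without their roles. The deposited gene table holds TPM that the authors rounded to whole numbers, treated here as a score of relative abundance with no counts behind it. Per the file headers, the authors' 2 deposited tables hold for each gene a mean normalized signal, a p-value and its adjusted form, and a log2 fold change with SE. Their log2 values had the opposite sign to knockdown minus scrambled TPM in all 201 entries (0 exceptions) and were turned.

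Values were taken as log2(TPM + 1) for 13681 genes averaging 1 TPM or more. limma 3.58.1 (R 4.3.3; trend) was fitted to 4 groups of 2 libraries, with 5 two-sided contrasts and Benjamini-Hochberg adjustment over all genes at 0.05. With 2 libraries against 2, the smallest p of an exact permutation test is 0.333, and that test was left out. The fit was tested on simulated data, where it recovered the effect sizes but made more false calls than the nominal rate, so calls under the alternatives are likely to hold false ones. The 9 genes, lists and naming rule (all 9; per list the 4 most abundant genes, the smallest p per direction and genes in the authors' tables) were chosen with earlier results of these data known, and the text gives some of the listed genes. Coordinates, transcripts and 3′ ends are from GENCODE M21 (GRCm38) and promoters from RefSeq (GRCm38.p6). The transcript per gene was that with the best APPRIS rank, then support level, then length.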

Additional observations from a re-analysis of the deposited data

How the results depend on the processing

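The log2 differences of Adam10 and Bace1 were negative in all 4 comparisons under every one of the 19 alternatives, and those of Adam17 under all 18 that kept it (a minimum mean of 20 TPM drops it). For Adam10, knockdown minus scrambled ran from −0.57 to −0.37 in total RNA and from −1.06 to −0.74 in long tails. For Bace1 it ran from −0.46 to −0.34 and from −0.79 to −0.42, and for Adam17 from −0.33 to −0.18 and from −0.81 to −0.30. Long tails minus total ran in knockdown from −0.95 to −0.54 for Adam10, −0.81 to −0.38 for Bace1 and −0.81 to −0.26 for Adam17, and in scrambled neurons from −0.56 to −0.18, −0.51 to −0.20 and −0.58 to −0.06. The interaction ran from −0.59 to −0.27, −0.39 to −0.02 and −0.55 to −0.03. The differences of App, Aplp1, Aplp2 and Aph1a changed sign in both fractions when 1 library was left out, and that of Ncstn did so in long tails. Centring on medians moved single libraries by −0.168 to 0.147 (log2), and the signs given for Adam10, Bace1 and Adam17 held under it. Over the 45 differences of the 9 genes, 60 values under an alternative moved by more than the spread between replicates and 781 did not.

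The limma fit called 0 genes in every comparison. In knockdown minus scrambled for total RNA and long tails it called 43 and 54 genes with no filter, 6 and 5 at a mean of 5 TPM, 7 and 13 at 20 TPM, 1 and 1 without Rn45s, 4 and 1 after quantile normalization, 1 and 1 after centring on medians, and 50 and 83 from the groups compared alone. For long tails minus total in knockdown and scrambled neurons it called 56 and 33 with no filter, 1 and 2 at 5 TPM, 1 and 1 at 20 TPM, and 97 and 87 from the groups compared alone. Leaving out 1 library gave 0 to 1 and 0 to 2 genes for the knockdown comparisons, 0 to 2125 for the fractions in knockdown and 0 to 57 in scrambled neurons. The 9 genes had 0 to 2 calls there, the 2 being Adam10 and Bace1 without knockdown long-tail library 1, where the lone library is assumed to vary like the other groups, and 0 under all other settings. The cause was not tested.

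With the replicate number as a block, 0 genes were called in each comparison. The labels state no pairing. Deviations of same-numbered libraries correlated across 6810 genes at −0.116 between the knockdown fractions and at 0.245 to 0.759 between other groups. Exchanging the numbers of the knockdown long-tail libraries, added after the data were seen, also gave 0 calls.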
